A study of Rattus norvegicus with 8 samples.

Results

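This account describes 7 genes in rat hippocampal slice cultures. Ptgds was selected on its large CA3 signal on these arrays, and Ttr, Dcn, Postn, Lum, Folr1 and Foxj1 were added because they are known to mark the meninges, the choroid plexus or the ependyma. Each has 1 probe set that the platform annotation gives a single gene symbol, so the 7 genes are 7 of 31042 probe sets and 7 of 14217 named genes. A further probe set that lists Ttr together with metallothionein genes was left out.

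Total RNA had been measured on 8 expression arrays, each from 15 slice cultures of rat hippocampus from which 1 field, CA1 or CA3, had been dissected. There were 3 CA1 control arrays, 3 CA3 control arrays, 1 CA1 lesion array and 1 CA3 lesion array, all at 7 days. In the sample titles the controls of each field are numbered 1 to 3 and both lesion arrays are numbered 1. What the numbers mark is not stated. Strain, age, the kind of lesion, the starting point of the 7 days and any treatment common to all groups were not given in the sources used here. Nothing in the labels says that the control arrays came from separate animals or preparations, so spreads and p-values cover these arrays alone and may be technical.

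Slice cultures are thin explants that keep the layered neurons and glia of the hippocampus alive on a membrane. The leptomeninges are the thin fibroblast sheets that cover the brain and dip into the fissure beside the hippocampus, and they secrete collagens and small proteoglycans. The choroid plexus is an epithelium in the ventricles that makes cerebrospinal fluid, and the ependyma is the ciliated lining of those ventricles. Ptgds encodes lipocalin-type prostaglandin D synthase, a secreted protein that makes prostaglandin D and also carries small lipophilic molecules. In the brain it is known from leptomeningeal cells, choroid plexus and oligodendrocytes.

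As a description, the 250 bases before the annotated start of Ptgds and of the meningeal matrix genes Postn and Lum are given from RefSeq (GRCr8), whose promoter table matched 4 of the 7 genes by symbol. A part of these sequences in the differences between fields was not tested. The Ptgds stretch is chr3:28682979-28683228 on the minus strand, that of Postn is chr2:140677811-140678060 on the plus strand, and that of Lum is chr7:34245456-34245705 on the plus strand. Capitals mark E-boxes (CANNTG, bound by basic helix-loop-helix factors) and the TATA-like letters TATAAA or ATAAAT, searched on both strands; the last 2 can overlap each other.
Ptgds: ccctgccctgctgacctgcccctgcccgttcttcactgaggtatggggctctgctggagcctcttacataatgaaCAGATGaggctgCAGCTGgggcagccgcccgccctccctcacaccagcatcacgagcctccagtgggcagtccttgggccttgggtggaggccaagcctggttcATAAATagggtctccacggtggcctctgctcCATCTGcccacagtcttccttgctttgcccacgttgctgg
Postn: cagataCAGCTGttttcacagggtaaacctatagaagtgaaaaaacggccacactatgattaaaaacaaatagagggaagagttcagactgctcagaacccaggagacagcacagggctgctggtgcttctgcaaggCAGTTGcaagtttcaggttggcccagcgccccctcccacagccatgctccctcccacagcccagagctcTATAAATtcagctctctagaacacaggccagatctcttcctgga
Lum: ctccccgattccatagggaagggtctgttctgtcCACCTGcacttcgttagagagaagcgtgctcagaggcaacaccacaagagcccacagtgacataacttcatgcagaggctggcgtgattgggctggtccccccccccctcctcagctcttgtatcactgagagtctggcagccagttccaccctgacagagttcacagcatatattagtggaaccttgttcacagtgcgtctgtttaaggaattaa

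The Ptgds stretch held 3 E-boxes, which begin at positions -175, -163 and -40 from the start site, and ATAAAT at -71. It also held GGGCGG on the opposite strand at -151 and -147, which overlap each other, and AGGTCA, a half-site of nuclear receptors, on the opposite strand at -239. The Postn stretch held E-boxes at -244 and -113 and the overlapping TATAAA and ATAAAT at -44 and -43, while the Lum stretch held 1 E-box at -216 and none of the other letters searched. Of 33469 stretches of this length, 65.54% held an E-box, 12.93% TATAAA, 13.12% ATAAAT, 30.47% GGGCGG, 14.06% AGGTCA and 3.21% the forkhead letters TGTTTAC, which none of the 3 stretches holds. A match describes letters only and is no evidence of a bound site.

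The values are linear intensities scaled to a common level, with a 2% trimmed mean near 2501 on every array, and differences are on the scale log2(intensity + 16), which understates changes of dim probe sets. Median intensity ran from 560 to 814 over the arrays. Gapdh control probes at the 3' end read 3.71 to 5.0 times those at the 5' end (a ratio that rises with RNA degradation) in CA1 controls and 3.75 to 3.93 times in CA3 controls, and the lesion arrays had ratios of 4.65 (CA1) and 5.23 (CA3). The beta-actin ratios were larger, at 14.5 to 22.2 in CA1 controls and 15.0 to 21.4 in CA3 controls. In the lesion arrays they were 17.3 (CA1) and 19.8 (CA3). Dissection was described on pyramidal genes, in lists written with earlier results of these data known. The summed intensity of the 4 measured CA1 genes was 47664 to 101504 in CA1 controls and 4103 to 6877 in CA3 controls. For the 8 CA3 genes it was 25020 to 36949 in CA1 controls and 65686 to 87525 in CA3 controls, with 7 genes higher and 1 lower in CA3. Of 12 pan-neuronal genes, 11 were higher and 1 lower in CA3 controls, with a median of 0.51 log2 units. Glial signal varied within each field, and the median myelin gene stood at -2.23, -0.17 and 1.12 log2 units from its mean over 8 arrays in the CA1 controls and at -1.69, -0.09 and 0.92 in the CA3 controls.

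Ptgds separated the fields. Its intensity, given here and below in the order of controls 1 to 3, was 107, 619 and 531 in the CA1 controls and 16983, 19268 and 16893 in the CA3 controls. In the lesion arrays it was 1631 (CA1) and 18620 (CA3). All 4 CA3 arrays were therefore far above all 4 CA1 arrays, and the CA3 values lay close together whereas the CA1 values were spread.

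On the log2 scale, Ptgds averaged 8.45 ± 1.31 in CA1 controls and 14.11 ± 0.11 in CA3 controls (SD, n = 3 arrays each). The highest CA3 control was 1.14 times the lowest, against 5.80 times in CA1, where control 1 was brighter than only 21.1% of the probe sets of its array. The CA3 controls were brighter than 95.3% to 96.0% of theirs. The control difference of 5.66 ± 0.52 (SE) is the value that chose the gene and is given as a description. It was 4.91 without CA1 control 1. In the lesion arrays, where the CA3 value was 11.3-fold the CA1 value (3.50 log2 units), each field has a lone array and the difference has no replicate check.

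**Figure D1:**
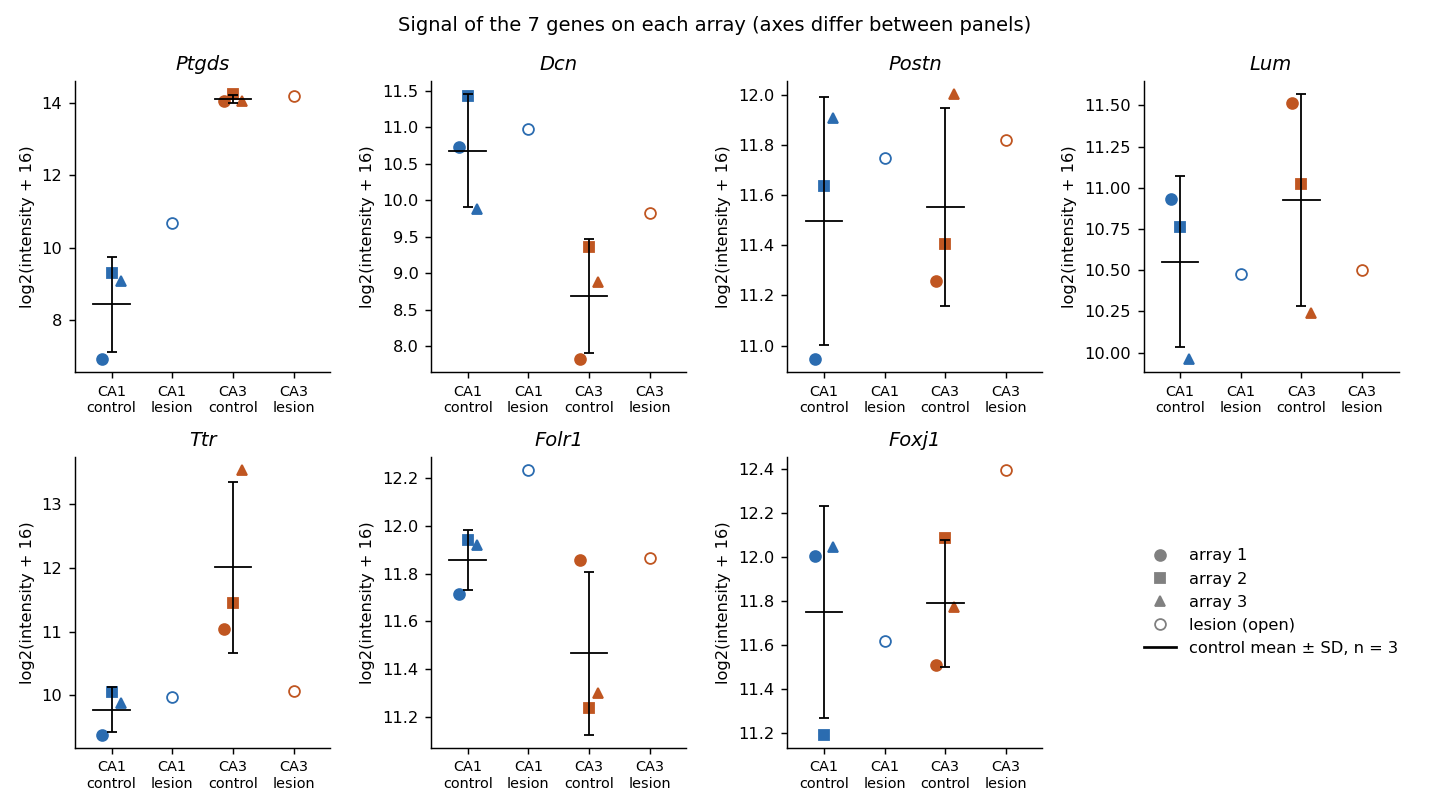
Log2(intensity + 16) of the 7 genes on each of the 8 arrays, with the control mean and SD (n = 3) as bars and lesion arrays as open circles; the vertical axes differ between panels. Ptgds is near 14 on all CA3 arrays and below 11 on all CA1 arrays, Dcn and Ttr have control values that do not overlap between fields, and the other 4 genes overlap.

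Of the 7 genes, 3 had control arrays that did not overlap between the fields. Ptgds and Ttr were higher in CA3, as were 6.06% of the probe sets tested, and Dcn was higher in CA1, as were 8.85%. In limma's linear model over all probe sets, 1 of the 7, Ptgds, passed an adjusted p of 0.05 in the field comparison, where 0.526% of 18625 probe sets passed (53 higher in CA3 and 45 lower). When variances were fitted with no trend on intensity, Ptgds did not pass (adjusted p = 0.112 in limma) and the count was 0, and it was 24 to 47 when control 1 or control 2 of either field was left out. Since Ptgds was picked from this comparison and the rest were listed with its results known, these counts are descriptive. A bulk sample cannot tell fewer cells of a type from less RNA per cell.

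None of the 3 matrix genes of the meningeal group had the CA3 excess of Ptgds. Decorin (Dcn), a small leucine-rich proteoglycan that binds collagen fibrils, had intensities of 1685, 2730 and 925 in the CA1 controls and 211, 641 and 453 in the CA3 controls. Every CA1 control was above every CA3 control, the opposite of Ptgds, and the mean was 3.97-fold higher in CA1. The log2 means were 10.68 ± 0.77 in CA1 and 8.69 ± 0.78 in CA3 (SD, n = 3 each), a difference of -1.99 ± 0.52 (SE). The lesion arrays kept that order, at 1999 in CA1 and 890 in CA3.

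Lumican (Lum), a second proteoglycan of the same family, is the next annotated gene to Dcn on chromosome 7, with 0 genes between them in RefSeq. Its intensity was 1938, 1722 and 982 in the CA1 controls and 2906, 2066 and 1194 in the CA3 controls, and the lesion arrays read 1408 in CA1 and 1435 in CA3. The fields overlapped, with a difference of 0.37 ± 0.38 (SE, n = 3 per field). The control values of Lum thus overlapped where those of its neighbour Dcn did not; the difference between the genes was not tested.

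Periostin (Postn), a secreted protein of fibroblast matrix, had intensities of 1959, 3165 and 3823 in the CA1 controls and 2431, 2692 and 4083 in the CA3 controls. For CA1 and CA3 lesion, 3422 and 3593 were read. The control means differed by 0.06 ± 0.30 (SE) between fields, a difference that turned negative without CA1 control 1 or CA3 control 3. For Postn, control 3 was highest and control 1 lowest in both fields, and for Lum the order was reversed in both.

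Transthyretin (Ttr), the carrier of thyroid hormone and of the retinol-binding protein complex and the most abundant transcript of choroid plexus epithelium, was higher in CA3 controls. Its intensity was 654, 1052 and 930 in the CA1 controls and 2087, 2767 and 11825 in the CA3 controls. The groups did not overlap, but CA3 control 3 was far above the other CA3 controls, which spanned 5.66-fold in all. The log2 means were 9.78 ± 0.35 in CA1 and 12.00 ± 1.34 in CA3 (SD, n = 3 each). Their difference was 2.23 ± 0.56 (SE), or 4.68-fold, and 1.46 without CA3 control 3. In the lesion arrays the fields were close, at 988 in CA1 and 1062 in CA3.

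Folate receptor alpha (Folr1), which moves folate across the choroid plexus, had intensities of 3340, 3910 and 3860 in the CA1 controls and 3692, 2401 and 2509 in the CA3 controls. CA3 control 1 lay inside the CA1 range and the other CA3 controls below it. The difference was -0.39 ± 0.23 (SE, n = 3 per field), with the mean lower in the field where Ttr was high. The lesion arrays gave 4802 in CA1 and 3714 in CA3.

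Foxj1, the transcription factor that drives motile cilia, overlapped between the control fields. Intensities were 4097, 2325 and 4215 in the CA1 controls and 2897, 4327 and 3487 in the CA3 controls, with a difference of 0.04 ± 0.28 (SE) whose sign turned when CA1 control 2 or CA3 control 2 was left out. The CA3 lesion array, at 5374, had the highest value of all 8 arrays, and the CA1 lesion array had 3124.

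The wider marker lists were set beside these genes, without them. Of 37 leptomeningeal and fibroblast genes on the arrays, 28 passed the filter on dim probe sets, and 3 of those passed in limma, all higher in CA3: Cst6, Islr and Itgbl1. These 3 were already known from these data to be high in CA3 when the list was written, so they are no independent evidence for it. Of the other 25, 0 passed at an adjusted p of 0.05, 4 were higher and 1 lower in CA3 at an unadjusted p under 0.05, a level that 8.31% of all probe sets passed in either direction. Of these 25, 18 were above 0 and 7 below, with a median of 0.38 against -0.04 over all probe sets tested. In none of the 25 were the control fields free of overlap.

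The 5 genes taken to define leptomeningeal cells passed the filter, which uses the mean over all arrays, and each overlapped between fields. All 5 had the higher control mean in CA3, the direction of Ptgds. The differences were 0.75 (Col1a1), 0.88 (Col1a2), 1.22 (Col3a1), 1.97 (Slc6a13) and 0.80 (Foxc1) log2 units, with adjusted p of 0.459 to 0.876 in limma. In CA1 controls, Slc6a13 (8.21 on the log2 scale) and Foxc1 (7.82) averaged under the filter level of 8.35, so their presence in CA1 is not shown; of the 3 collagen genes, the lowest control value was 634, for Col3a1. The solute carrier Slc6a13, a GABA and taurine transporter of meningeal cells, had 137, 962 and 156 in the CA1 controls and 1270, 852 and 1361 in the CA3 controls, a difference of 1.97 on the log2 scale. Col1a1, a chain of fibrillar collagen, ran from 1003 to 1572 in CA1 and from 1288 to 3726 in CA3. Aldh1a2, the enzyme that makes retinoic acid in meninges, had 543, 1644 and 377 in CA1 and 3229, 1257 and 3584 in CA3 (1.78, adjusted p = 0.350 in limma). Among CA1 controls, Ptgds was highest in control 2, while of the 28 tested genes 8 were highest in control 1, 11 in control 2 and 9 in control 3. The median of these 28 stood at -0.50, -0.18 and -0.28 log2 units from its mean over 8 arrays in the CA1 controls. It stood at 0.31, 0.09 and 0.51 in the CA3 controls, and at -0.16 (CA1) and 0.80 (CA3) in the lesion arrays. The 28 include Cst6, Islr and Itgbl1, already known to be high in CA3. The summed intensity of the whole list ran from 90786 to 198153 in CA1 controls and from 115258 to 253770 in CA3 controls. Much of that range came from Cldn11, which the myelin list shares (3901 to 90456 in CA1 and 4806 to 101536 in CA3), and without it the sums ran from 77013 to 107697 and from 90131 to 152235. The part of meningeal tissue in the Ptgds difference was not tested.

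**Figure D2:**
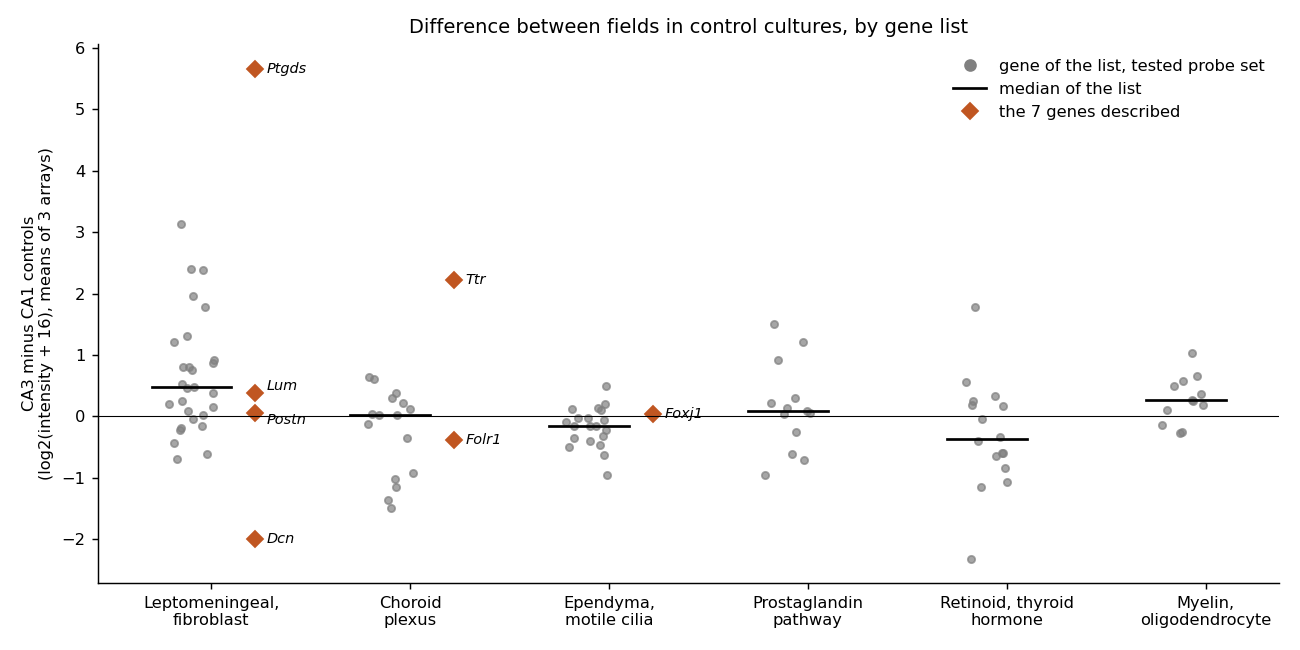
Difference between CA3 and CA1 controls (means of 3 arrays each, log2 scale) for each tested gene of 6 lists, with list medians as black lines and the 7 genes as diamonds. Ptgds at 5.66 lies above every gene of the lists, Dcn at -1.99 lies below every gene of the meningeal list, and Ttr at 2.23 lies above every other choroid plexus gene drawn.

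Choroid plexus markers other than Ttr were centred near 0 between the fields. Of 33 on the arrays, 16 passed the filter and 0 of these passed in limma (0 higher and 2 lower in CA3 at an unadjusted p under 0.05, against 8.31% of all probe sets in either direction). Their median was 0.02. Of the 16, 4 had control values free of overlap, all higher in CA1 (8.85% of all probe sets), among them the serotonin receptor Htr2c (5604, 10581 and 4911 in the CA1 controls, and 1874, 3466 and 2013 in CA3; -1.49 ± 0.33 SE, adjusted p = 0.114) and the thyroxine carrier Slco1c1 (-1.14 ± 0.31, adjusted p = 0.242). Neurons also express Htr2c and vessels Slco1c1. Of the 17 genes under the filter, 3 were free of overlap: Otx2 was higher in CA1, and Cldn1, a tight junction protein (51.0, 46.4 and 178 against 945, 331 and 686), and Slc13a4, a sulfate transporter (145, 245 and 88.1 against 622, 618 and 1064), were higher in CA3. Leptomeningeal cells also express Slc13a4.

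Of the 5 genes taken to define choroid plexus epithelium, Clic6 had no probe set of its own and 0 of the other 4 passed the filter. Kl, the klotho gene, ran from 18.9 to 129 over the 8 arrays and Kcnj13, a potassium channel, from 48.6 to 894. On CA3 control 3, where Ttr reached 11825, Kl was 129, Kcnj13 198, the transcription factor Otx2 133 and the water channel Aqp1 49.4. Otx2, although under the filter, read 521 to 725 in CA1 controls, 68.8 in the CA1 lesion array and 25.3 to 133 in CA3 controls. The median choroid plexus gene stood at -0.21, -0.07 and 0.11 log2 units from its mean over 8 arrays on CA3 controls 1 to 3. Ttr stood highest on CA3 control 3. On CA1 controls 1 to 3 the same median stood at 0.03, -0.12 and 0.14. This median covers the 16 genes past the filter, which hold none of the genes taken to define the epithelium, so it says little about choroid plexus.

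Ependymal and motile cilium genes gave no call between fields. Of 25 on the arrays, 20 passed the filter and 0 passed in limma (0 in either direction at an unadjusted p under 0.05). Of the 20, 5 were above 0 and 15 below, with a median of -0.15 against -0.04 over all probe sets tested. Control values were free of overlap for 3 of the 20, all higher in CA1, as for 8.85% of all probe sets. Tekt1, a cilium protein, ran from 3643 to 5403 in CA1 controls and from 4289 to 4931 in CA3 controls. The genes with the smallest p were Gmnc, a regulator of multiciliated cells (-0.96, adjusted p = 0.632), and Rfx4 (0.50, adjusted p = 0.716).

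The rest of the prostaglandin pathway gave no call between fields. Of 22 genes on the arrays, 13 passed the filter and 0 passed in limma (2 higher and 0 lower in CA3 at an unadjusted p under 0.05, against the same 8.31%), with a median of 0.08. These 2 were the cyclooxygenases, which make the substrate of Ptgds: Ptgs2 had 826, 964 and 2150 in the CA1 controls and 4477, 2134 and 4194 in CA3 (1.50 ± 0.42 SE, adjusted p = 0.276), and Ptgs1 had 368, 440 and 668 in CA1 and 888, 786 and 1108 in CA3 (0.92 ± 0.39, adjusted p = 0.585). Hpgds, the haematopoietic prostaglandin D synthase, differed by 0.30. Ptgdr2, a receptor for prostaglandin D, was below the filter, at 29.5 to 138.

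Among 16 tested genes of retinoid and thyroid hormone transport and response, which share ligands with Ttr and Ptgds, 0 passed in limma (1 higher and 3 lower in CA3 at an unadjusted p under 0.05, against 8.31%) and the median was -0.37. The thyroid hormone receptor genes Thra and Thrb had control values free of overlap, as 8.85% of probe sets had with CA1 higher, and differed by -0.40 and -0.64 (limma adjusted p = 0.646 and 0.457). Of 5 tested small leucine-rich proteoglycans other than Dcn and Lum, 0 passed (0 higher and 1 lower at an unadjusted p under 0.05), and their differences ran from -0.61 for Fmod to 0.53 for Bgn, both of which the meningeal list also holds.

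Oligodendrocytes also make Ptgds, and 12 tested myelin genes were set beside it. Of these, 0 passed between fields in limma (0 in either direction at an unadjusted p under 0.05), with a median of 0.26. The summed intensity of the list ran from 72489 to 712596 in CA1 controls and from 91845 to 550758 in CA3 controls. Within CA3, Ptgds was 16983 in control 1 and 16893 in control 3 while Mbp, myelin basic protein, was 63522 in control 1 and 283467 in control 3. In CA1, control 1 was lowest for both Ptgds (107, 619 and 531) and Mbp (47660, 221869 and 439668), and the lesion array read 1631 and 397647. The part of oligodendrocyte RNA in the Ptgds values was not tested.

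**Figure D3:**
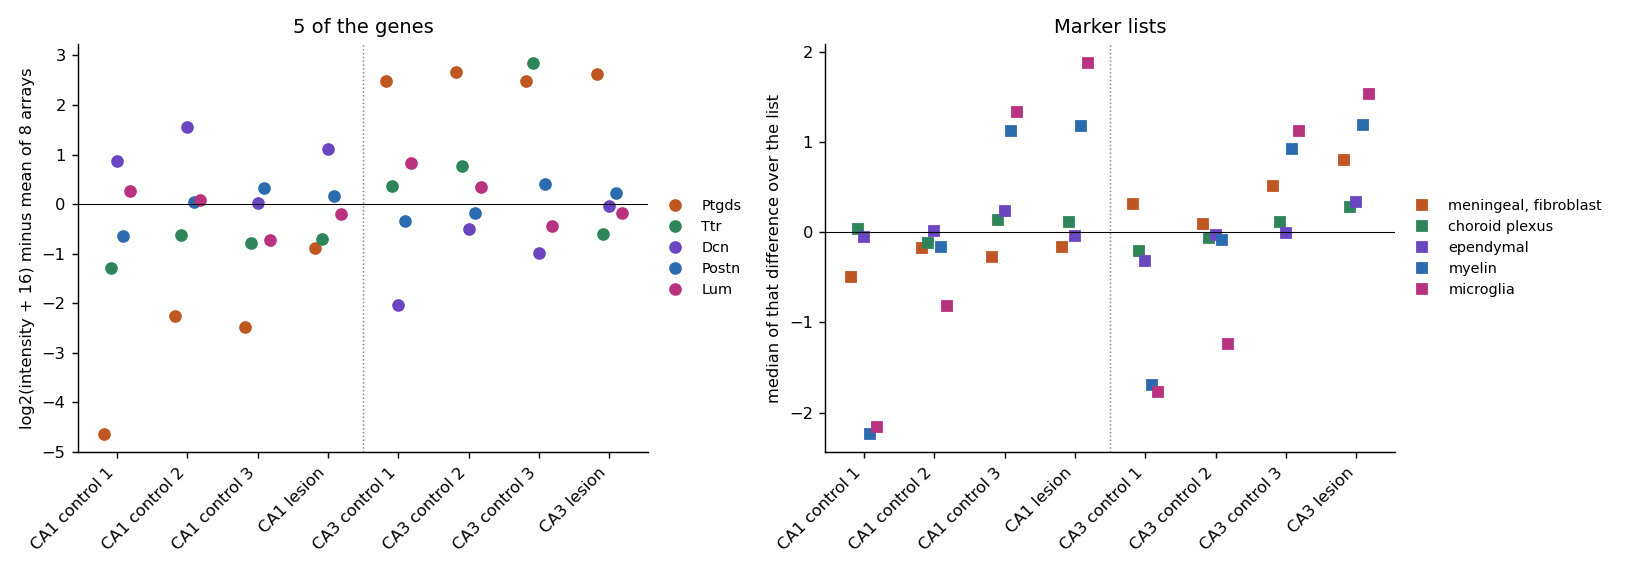
Left, log2(intensity + 16) of 5 of the genes minus their mean over 8 arrays; right, the median of the same quantity over the tested genes of 5 marker lists. Ptgds is high on all CA3 arrays, including control 1 where the median myelin gene is at -1.69 and control 3 where it is at 0.92, and Ttr peaks on CA3 control 3 where the choroid plexus list is at 0.11.

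Patterns like those of the 7 genes were ranked by Pearson's r over the 8 arrays among tested probe sets with 1 gene symbol, as a description without a test, since the arrays of a field share its difference. Closest to Ptgds were Sec11c, a signal peptidase subunit (r = 0.968), Inpp1 (0.965), the neuronal calcium sensor Ncald (0.958) and the sulfatase Sulf2 (0.957), which differed between control fields by 0.81 to 1.75 log2 units, less than Ptgds. Sulf2 had 4705, 6119 and 7261 in CA1 controls and 23479, 19988 and 17126 in CA3. No gene of the meningeal or myelin lists was among these 4. With only 4 ranks over so many probe sets, that absence says nothing about the source of the Ptgds RNA.

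Closest to Dcn were Enkd1 (r = 0.975), Rasgrp2 (0.974), Slc24a4 (0.966) and Farp1 (0.965), all lower in CA3. Lum was followed by Rundc3a (0.990), Trim3 (0.985), the proton pump subunit Atp6v0c (0.983) and Acot7 (0.963), and Postn by Mia2 (0.981), Eml1 (0.981), Glipr1 (0.977) and Fbxw17 (0.976). The best match of Ttr was weaker, Ppm1l at 0.941, with 5198 to 6364 in CA1 controls and 6329 to 8287 in CA3 controls. Folr1 was followed by Hivep1 (0.944) and Foxj1 by Ptpn14 (0.961).

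Lesion arrays were compared with the controls of their field. In limma, 0 of the 7 genes and 0% of 18625 probe sets passed for the mean lesion effect over both fields (1 of the 7 and 1193 probe sets, or 6.41%, at an unadjusted p under 0.05). For the difference of the lesion effects between fields, likewise 0 of the 7 and 0% of all passed (0 of the 7 and 576 probe sets, or 3.09%, at an unadjusted p under 0.05). With 1 lesion array per field, the model assumes that it varies as the controls do. Both lesion arrays carry number 1, whereas the effects are taken against the mean of all 3 controls of the field. Among the controls of each field, number 1 had the lowest median myelin and microglia signal. The lesion effects cannot be told apart from any difference that the numbers mark.

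The CA1 lesion array lay above all 3 controls for 2 of the 7 genes, Ptgds and Folr1, as it did for 21.2% of probe sets, and below them for 0 of the 7, against 24.8%. The CA3 lesion array lay above all its controls for Dcn, Folr1 and Foxj1, 3 of the 7 against 29.7% of probe sets, and below them for Ttr alone, against 24.8%. With 7 genes these counts are too few to set apart from the shares over all probe sets.

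Ptgds had the largest lesion difference of the 7 in CA1: the lesion array, at 1631, was 1.37 log2 units over control 2 and 1.59 over control 3. It was also over control 1, whose value of 107 cannot be told from background, so that no size is given for that difference. In CA3 it differed from the 3 controls by -0.05 to 0.14. The mean effect was 1.16 ± 0.52 (SE; limma over 8 arrays, adjusted p = 0.771) and 0.78 without CA1 control 1, and the CA3 effect minus the CA1 effect was -2.16 ± 1.03 (adjusted p = 1.00). Among the alternatives, the mean effect of Ptgds passed the threshold only with a block for the replicate number, which leaves 2 residual degrees of freedom. Both lesion arrays carry number 1, so the block sets the mean effect against control 1 of each field. In CA1 this is the value of 107, so the size of the block estimate for Ptgds is not usable either. On the same CA1 lesion array the median myelin gene stood at 1.18 and the median microglia gene at 1.88. On CA1 control 3, where Ptgds was 531, they stood at 1.12 and 1.33. The median meningeal gene stood at -0.16 on the CA1 lesion array and at -0.50, -0.18 and -0.28 on CA1 controls 1 to 3. The part of glial or meningeal signal in the Ptgds value was not tested.

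Ttr differed the other way in CA3. The lesion array, at 1062, differed by -0.96, -1.37 and -3.46 log2 units from CA3 controls 1, 2 and 3, and in CA1 the corresponding differences were 0.58, -0.09 and 0.09. The mean effect was -0.87 ± 0.56 (SE; adjusted p = 0.811), and -0.49 without CA3 control 3. The difference between fields was -2.12 ± 1.11 (adjusted p = 1.00).

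Dcn was 2.20-fold higher in the CA3 lesion array than in the mean of its controls, with 0.46 to 1.99 log2 units over the single controls, and in CA1 it lay within their range. Its mean effect was 0.72 ± 0.52 (SE; adjusted p = 0.812). Folr1 had a mean effect of 0.39 ± 0.23 (adjusted p = 0.810), but exceeded CA3 control 1 by only 0.01. Foxj1 exceeded its CA3 controls by 0.31 to 0.89 and lay within the CA1 range (mean effect 0.24 ± 0.28, adjusted p = 0.884). Postn (0.26 ± 0.30) and Lum (-0.25 ± 0.38) lay within the control range in both fields, with adjusted p of 0.886 and 0.914.

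**Figure D4:**
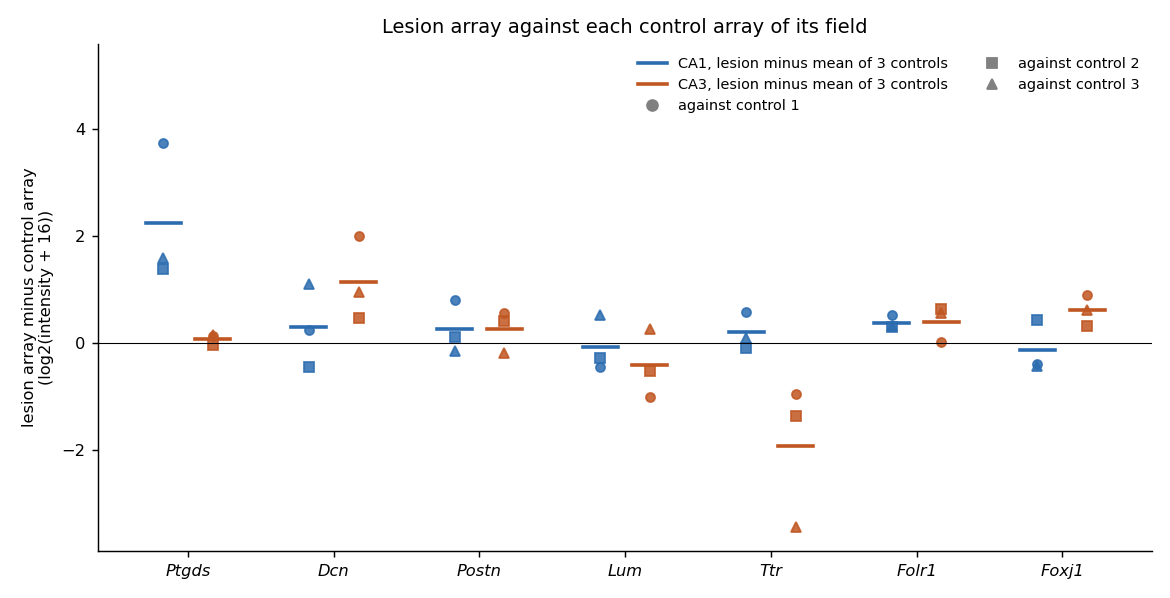
Log2 difference of the lesion array from each of the 3 control arrays of its field, with the difference from their mean as a bar, for CA1 in blue and CA3 in orange. Ptgds lies above 0 against all CA1 controls and near 0 in CA3, whereas Ttr lies near 0 in CA1 and below 0 against all CA3 controls.

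The wider lists gave no call in the lesion comparisons either. For the mean lesion effect, 0 of 28 tested meningeal genes passed in limma (2 higher and 1 lower at an unadjusted p under 0.05; median 0.22), 0 of 16 choroid plexus genes (0 in either direction; 0.15), 0 of 20 ependymal genes (1 higher; 0.21) and 0 of 13 prostaglandin genes (3 higher and 2 lower; 0.21), beside 6.41% and a median of 0.02 over all probe sets. Glial lists had larger medians, again with 0 calls: of 13 microglia genes 10 were higher at an unadjusted p under 0.05 (median 2.27), and of 12 myelin genes all 12 were above 0 (1 higher; 1.52). Ptgs2, which differed in the direction of Ptgds between control fields, read 481 in the CA1 lesion array and 637 in that of CA3, below all 3 controls of each field. Hpgds, which microglia also express, was above all controls of each field, at 1243 and 823; the part of microglial signal in that value was not tested.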

How the data were processed

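Values were the deposited signal intensities, 1 per probe set and array, on a linear scale; the authors had scaled them to a common level, as judged from their equal 2% trimmed means. The software and probe summary were not given in the sources used here, and detection calls were not used. Of 31099 probe sets, 57 controls were removed. Probe sets whose mean log2(intensity + 16) lay under the 40th percentile were left out, which kept 18625 and all 7 genes. Names came from the platform annotation (20826 probe sets with 1 symbol, 436 with several, 9780 with none); of 20832 annotation entries with 1 symbol, 20764 matched a RefSeq gene by identifier.

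Limma 3.58.1 in R 4.3.3 was fitted across all probe sets and 8 arrays, with 1 coefficient per group, an intensity trend in the variances and 4 residual degrees of freedom, with Benjamini-Hochberg adjustment over every tested probe set and a threshold of 0.05. The number of arrays limits the precision.

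The 7 genes and the 13 lists were chosen with earlier results of these data known. List genes entered with their brightest probe set and are named if past the threshold (at most 4 per list), or else as the 2 with the smallest p between control fields; those beyond this rule, including the defining markers, Aldh1a2, Cldn1, Slc13a4, Cldn11, Hpgds, Ptgdr2, Thra, Thrb, Fmod, Bgn and Mbp, were named for their role or after their values were seen. Patterns alike are the 4 highest Pearson correlations. Upstream sequences and motif counts came from the RefSeq GRCr8 table.

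The alternatives tried were a smaller and a larger pseudocount, quantile normalisation, a stricter filter or none, variances without the trend, removal of cross-hybridising probe sets, a block for the replicate number, omission of each array, the 6 controls alone, an additive lesion model and, added after the data were seen, fits without control 1 or control 3 of both fields.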

Additional observations from a re-analysis of the deposited data

How the results depend on the processing

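Between control fields, Ptgds, Ttr, Dcn, Lum and Folr1 kept their direction in every alternative that could be computed (19, or 18 for Dcn, which the 60th percentile filter removed): Ptgds ran from 4.91 to 6.09, Ttr from 1.46 to 2.71 and Dcn from -2.48 to -1.53. Postn and Foxj1 turned sign in 3 and 2 of 19. The count of 98 probe sets past the threshold was 0 with no intensity trend (1533 at an unadjusted p under 0.05), where Ptgds was not past it either, 24 to 104 when single arrays were left out, and 5 without control 1 of both fields. It was 29 without CA3 control 1, 24 without CA3 control 2, 47 without CA1 control 1 and 27 without CA1 control 2. For the mean lesion effect the count was 0 to 1 with single arrays left out and 182 without control 3 of both fields. Leaving out the CA1 or CA3 lesion array leaves the effect of the other field, which for Ptgds is 0.07 or 2.24. With the replicate block, which leaves 2 residual degrees of freedom, 358 probe sets passed between fields, 697 for the mean lesion effect and 0 for the difference; of the 7 genes, 3 (Ptgds, Ttr and Dcn), 1 and 0 passed, the 1 being Ptgds (1.94, adjusted p = 0.0395, in a range of 0.0395 to 0.999 over its alternatives). Both lesion arrays carry number 1, so the block sets the mean lesion effect against control 1 of each field. For Ptgds the block estimate therefore depends on CA1 control 1, at 107, and its size is not usable. The labels do not say what the numbers mark, and the main fit did not pair the arrays by them. The deviations of same-numbered controls of the 2 fields correlated at 0.155, 0.0601 and 0.306 for numbers 1 to 3. Each was the highest of that control's correlations with the other field. The median microglia gene rose from control 1 to control 3 in both fields, as did the median myelin gene. The microglia medians were -2.16, -0.82 and 1.33 in CA1 controls and -1.78, -1.24 and 1.12 in CA3 controls. Whether the numbers mark shared sets was not tested, and the main p-values ignore any such sets. Without detection calls, low values such as Ptgds in CA1 control 1 cannot be told from background.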
